A study of Mus musculus with 6 samples.

Results

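Cholesterol synthesis and sterol regulation were followed in cells of ADC106, a mouse angiosarcoma line, after transfection with a mimic of the microRNA miR-497. The genes were chosen by name, with earlier results of these data known. They are 7 enzymes of the mevalonate steps, 11 enzymes of the sterol steps, 5 genes that control the Srebp transcription factors, 3 genes of sterol transport and 2 of sterol export. The list does not hold every gene of these steps. These 28 genes were taken from 55401 gene rows by their mouse Ensembl identifiers, and 27 of them passed the filter on low counts, among 14661 genes tested. Angiosarcoma is a malignant tumour of cells that line vessels. One group of 3 libraries came from cells given an NC mimic (genotype labelled WT), and the other group of 3 from cells given the miR-497 mimic (genotype labelled miR-497 overexpression). Both mimics were used at 12.5 nM and RNA was taken after 3 days, so the groups share the cell line, the medium with serum and the transfection. All 6 libraries come from a single line, and the labels do not say whether the replicates were separate cultures, so p-values measure only the spread between these libraries.

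Cells make cholesterol from acetyl-CoA. The mevalonate steps build the isoprenoid farnesyl pyrophosphate, and the sterol steps join this into squalene, close it into lanosterol and trim lanosterol to cholesterol. Srebf2 and Srebf1 encode the Srebp factors, which Scap carries out of the endoplasmic reticulum when membranes hold little sterol and which Insig proteins hold back when sterol is plentiful. Cholesterol that enters with lipoproteins leaves the lysosome through Npc2 and Npc1, and Abca1 and Abcg1 move it out of the cell.

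With the miR-497 mimic, 15 of the 17 tested synthesis enzymes of the list fell and none rose. Of all 27 tested members, 20 fell and 3 rose with the threshold set at 0.05 for p adjusted by Benjamini-Hochberg over all tested genes (quasi-likelihood test of edgeR). The same threshold was passed by 49.8% of all tested genes, with 26% lower and 23.8% higher. As the members were chosen with earlier results known, these counts are a description only. The groups did not overlap for 25 members, 22 lower and 3 higher, and for 57.4% of all tested genes, 29.6% lower and 27.8% higher. The 3 that rose were Npc1, Npc2 and Abca1, which act in the exit of cholesterol from lysosomes and from cells. The median log2 fold change was -0.57 over the 27 tested members and -0.84 over the 17 tested synthesis enzymes, against -0.02 over all tested genes. Synthesis enzymes together took 0.112% to 0.117% of the counts in NC libraries and 0.0648% to 0.0697% in miR-497 libraries. In bulk RNA, fewer cells of a type and less RNA per cell cannot be told apart.

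**Figure D1:**
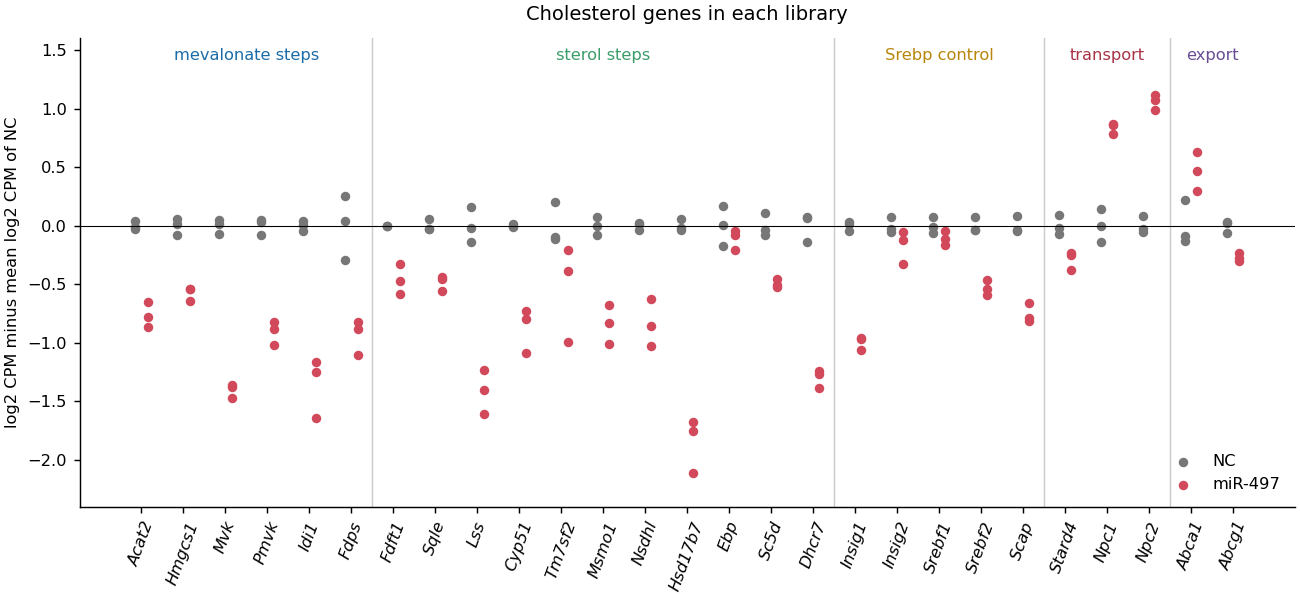
Each point is 1 library, placed at its log2 CPM (counts scaled to a common library size) minus the mean log2 CPM of the 3 NC libraries, for the 27 tested members grouped by role; NC libraries are grey and miR-497 libraries red. Apart from Ebp, the red points of the synthesis enzymes lie below the grey ones, and those of Npc1, Npc2 and Abca1 lie above.

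The libraries held 25777676 to 36159499 counts. Mitochondrially encoded genes took 2.03% to 2.15% of the counts in NC libraries and 2.94% to 3.77% in miR-497 libraries, and the part of this difference in the results was not tested. All 12 listed endothelial markers were detected, with a summed level of 9950 to 10600 CPM in NC and 9610 to 10100 CPM in miR-497 libraries. Single markers went both ways, with 7 higher and 4 lower: Emcn and Cldn5 had log2 fold changes of 1.03 and 1.02, and Egfl7 and Pecam1 of -0.94 and -0.52. All 6 epithelial markers stayed under 1 CPM in every library, as did 5 of 6 leukocyte markers, Ptprc included. The summed leukocyte level, carried by Cd68, was 8.74 to 9.74 CPM in NC and 15.2 to 20.1 CPM in miR-497 libraries. The 8 fibroblast markers summed to 318 to 343 CPM in NC and 467 to 564 CPM in miR-497 libraries, with Dcn under 1 CPM and Lum at 0. Of these, Col1a1, Col1a2 and Postn were higher (0.84, 1.15 and 0.59 on the log2 scale), Col3a1 and Pdgfrb lower (-0.79 and -0.37), and Pdgfra did not pass the threshold. The part of these markers in the results was not tested.

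The way reads were assigned to genes limits some members. Of the protein-coding genes that lie wholly inside another gene's span on the opposite strand, 93.7% of 815 were listed at 0 in all 6 libraries, and of those inside a same-strand gene, 94.3% of 436. Among protein-coding genes that overlap no other gene, 28.2% were listed at 0. Mvd, the mevalonate diphosphate decarboxylase (ENSMUSG00000006517), is listed at 0 in every library and could not be tested. It lies within the span of Gm20388 (chr8:119910841-124345722 in GRCm38), a gene model with 1202 to 1955 counts per library, and all 207 gene rows inside that span are listed at 0. The zeros of Mvd therefore say nothing about its expression. Part of the exon bases also lies in another gene's span for Fdps (79.6%), Lss (68.5%), Hmgcs1 (46.6%), Npc1 (18.8%), Fdft1 (18.3%), Scap (13.2%), Tm7sf2 (12.1%) and Idi1 (9.22%). Counts of these genes may come from the remaining part. Among the 19 members with under 5% of exon bases in another gene, 14 fell, 2 rose and 3 did not pass the threshold.

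Mature miR-497-5p is a member of the miR-15/16 family, whose members pair with transcripts through the same seed. The sequences from RefSeq (GRCm38.p6) are shown because they set which sites could be searched, with the seed, bases 2 to 8, in capitals.
mmu-miR-497a-5p: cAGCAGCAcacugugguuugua
mmu-miR-16-5p: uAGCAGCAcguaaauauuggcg
mmu-miR-195a-5p: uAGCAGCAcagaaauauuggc
The search covered the longest annotated 3' UTR of each gene. It took TGCTGCT (7mer-m8), GCTGCTA (7mer-A1) and their union TGCTGCTA (8mer) as sites. Among 12859 tested genes with a 3' UTR, 28.1% held such a site. Of the 28 members, 3 held one: Hsd17b7, Sc5d and Abcg1. A further 9 had only the 6-base core GCTGCT, and 16 had no match. Of the 20 members that fell, 17 had no 7mer or 8mer, and over all genes that fell 59.5% had none.

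The sites of the 3 members are shown as 22 bases of the transcript's strand, with the matched bases in capitals.
Hsd17b7 site 1: cattctccttcataTGCTGCTt
Hsd17b7 site 2: tccctaggctggaaTGCTGCTg
Hsd17b7 site 3: gaatgctgctggaaTGCTGCTg
Sc5d site 1: tttgacccttaacaTGCTGCTA
Abcg1 site 1: tccagagaggaactgGCTGCTA
Abcg1 site 2: gagcataagggtgggGCTGCTA
The windows lie at chr1:169952573-169952594, chr1:169950214-169950235 and chr1:169950203-169950224 for Hsd17b7, chr9:42252125-42252146 for Sc5d, and chr17:31115814-31115835 and chr17:31116724-31116745 for Abcg1 (GRCm38). Site 4 of Hsd17b7 has the same 22 bases as site 3, and sites 2 to 4 start at bases 2812, 2823 and 2834 of a 3' UTR of 3498 bases. All of these sites lie in the longest annotated 3' UTR, and only the longest and the shortest were searched. In the shortest annotated 3' UTR, of 248 bases for Hsd17b7, 609 for Sc5d and 203 for Abcg1, there was no site. Which 3' UTR these cells use was not analysed here.

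**Figure D2:**
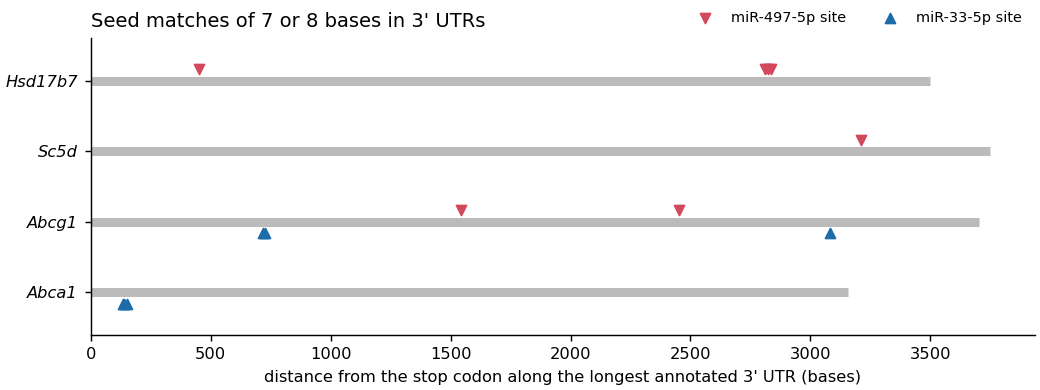
Grey bars are the longest annotated 3' UTRs of 4 members, drawn to scale in bases from the stop codon; red triangles mark 7mer and 8mer matches to the miR-497-5p seed and blue triangles those to the miR-33-5p seed. Hsd17b7 carries 4 red marks, Sc5d 1 and Abcg1 2, while Abca1 carries blue marks only, at its start.

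Every listed and tested enzyme of the mevalonate steps fell, 6 of 6, by -0.57 to -1.40 on the log2 scale. The list does not hold every enzyme of these steps. Mvk (ENSMUSG00000041939, chr5:114444269-114460591), the kinase that phosphorylates mevalonate, stood at 25.9, 26.5 and 24.4 CPM in NC libraries 1 to 3 and at 9.95, 9.85 and 9.22 CPM in miR-497 libraries 1 to 3. The groups were far apart, with a log2 fold change of -1.40 (SE 0.0921, adjusted p by edgeR = 2.34e-09). Idi1 (ENSMUSG00000058258), which interconverts the 2 five-carbon isoprenoid units, stood at 46.8, 44.9 and 47.7 CPM with NC and at 20.7, 19.6 and 14.9 CPM with miR-497. The third miR-497 library was the lowest, and the change was -1.34 (SE 0.0985, adjusted p by edgeR = 9.22e-09). Its relative Idi2 had 0 to 3 counts per library.

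The first enzymes of the pathway fell as well. Acat2 (ENSMUSG00000023832), the thiolase that joins acetyl-CoA units, went from 50.3, 53.0 and 51.0 CPM to 28.3, 32.7 and 29.96 CPM. On the log2 scale it changed by -0.76 (SE 0.0732, adjusted p by edgeR = 2.14e-07). Its close copy Acat3 had 10 to 38 counts per library, against 710 to 1936 for Acat2; how reads that fit both were counted is not given in the sources used here. Hmgcs1 (ENSMUSG00000093930), the synthase that forms HMG-CoA, went from 165.7, 176.8 and 181.9 CPM to 120.2, 119.9 and 112.1 CPM, a change of -0.57 (SE 0.0547, adjusted p by edgeR = 1.94e-07). All 3 miR-497 values lay below the lowest NC value for both genes. Pmvk, which adds the second phosphate to mevalonate, went from 19.3, 20.7 and 21.0 CPM to 11.5, 11.0 and 10.01 CPM, with -0.91 (SE 0.0979, adjusted p by edgeR = 8.18e-07). Fdps, the farnesyl pyrophosphate synthase, went from 16.1, 20.3 and 23.5 CPM to 9.15, 10.7 and 11.1 CPM. NC replicate 1 was the lowest of its group but above all miR-497 libraries, and the change was -0.95 (SE 0.130, adjusted p by edgeR = 1.21e-05).

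Of the 11 listed enzymes of the sterol steps, 9 fell and 2, Tm7sf2 and Ebp, did not pass the threshold. The fall was steepest for Hsd17b7 (ENSMUSG00000026675, chr1:169949535-169969241), the 3-keto-sterol reductase that completes removal of the C4 methyl groups and the member with 4 seed sites. It stood at 65.9, 66.7 and 70.6 CPM with NC and at 20.1, 21.2 and 15.7 CPM with miR-497. The levels did not come near each other, and the log2 fold change was -1.84 (SE 0.0943, adjusted p by edgeR = 1.31e-10), or 0.28 times the NC level. Msmo1 and Nsdhl, the other enzymes of C4 demethylation, have no 7mer or 8mer. Msmo1 went from 105.9, 111.7 and 117.9 CPM to 69.9, 62.8 and 55.4 CPM, and Nsdhl from 27.8, 29.1 and 28.9 CPM to 18.6, 15.8 and 14.01 CPM. Both changes were close to -0.83 on the log2 scale (SE 0.0752 and 0.0983, edgeR adjusted p = 1e-07 and 2.36e-06). The part of seed sites in the changes of these 3 enzymes was not tested.

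Lss (ENSMUSG00000033105), which folds oxidosqualene into lanosterol, stood at 18.95, 20.5 and 23.3 CPM with NC and at 8.87, 7.87 and 6.86 CPM with miR-497. The log2 fold change came to -1.41 (SE 0.119, adjusted p by edgeR = 4.49e-08). Dhcr7 (ENSMUSG00000058454, chr7:143823145-143848410), which reduces 7-dehydrocholesterol, went from 50.6, 58.3 and 58.8 CPM to 23.6, 23.1 and 21.3 CPM, with -1.30 (SE 0.0793, adjusted p by edgeR = 9.85e-10). With Mvk, Idi1 and Hsd17b7 these made 5 members lower by at least 2-fold, a size of fall called in 5.19% of all tested genes. Cyp51, the lanosterol demethylase, went from 117.3, 119.4 and 117.6 CPM to 71.2, 67.8 and 55.6 CPM, with -0.87 (SE 0.0750, adjusted p by edgeR = 6.44e-08).

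The enzymes on either side of squalene and Sc5d fell by 0.46 to 0.50 on the log2 scale. Fdft1, the squalene synthase, stood between 86.6 and 86.8 CPM in all NC libraries and at 69.1, 62.5 and 58.0 CPM with miR-497. Its log2 fold change was -0.46 (SE 0.0666, adjusted p by edgeR = 2.21e-05). Sqle, the squalene epoxidase, went from 186.4, 186.4 and 198.6 CPM to 138.7, 140.6 and 129.5 CPM, with -0.48 (SE 0.0537, adjusted p by edgeR = 1.18e-06). Sc5d, the lathosterol desaturase with a single 8mer, went from 97.6, 100.6 and 111.1 CPM to 75.0, 72.6 and 71.5 CPM, with -0.50 (SE 0.0614, adjusted p by edgeR = 3.74e-06). The groups were apart for each of the 3 enzymes. Ebp, the sterol isomerase, stood at 17.2, 19.4 and 21.8 CPM with NC and at 16.8, 18.8 and 18.3 CPM with miR-497, and the groups overlapped (-0.11, SE 0.101, adjusted p by edgeR = 0.372). Tm7sf2, a sterol reductase with 60 to 144 counts per library, the fewest of the tested members, stood at 4.34, 3.53 and 3.48 CPM and at 3.26, 1.89 and 2.89 CPM. Its groups were apart, with a change of -0.51 that missed the threshold (SE 0.244, adjusted p by edgeR = 0.0969).

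**Figure D3:**
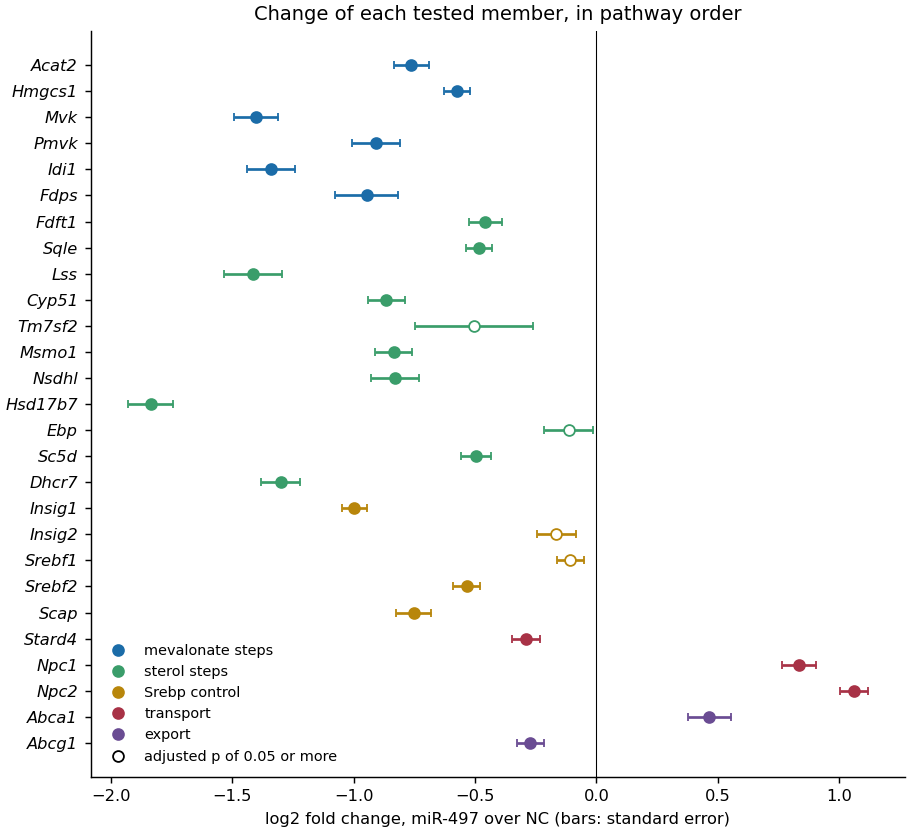
Points are log2 fold changes of miR-497 over NC for the 27 tested members in pathway order, bars their standard errors, colours their roles, and open points those with an adjusted p of 0.05 or more. Hsd17b7 lies farthest left at -1.84 and Npc2 farthest right at 1.06; the 4 open points are Tm7sf2, Ebp, Insig2 and Srebf1.

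Among the genes that control Srebp factors, 3 of 5 fell. Srebf2 (ENSMUSG00000022463), the factor best known for sterol synthesis genes, stood at 309.1, 308.9 and 334.8 CPM with NC and at 217.6, 230.0 and 210.4 CPM with miR-497. The groups were apart, with a log2 fold change of -0.53 (SE 0.0554, adjusted p by edgeR = 5.25e-07). Scap, the escort protein, went from 54.2, 53.8 and 59.0 CPM to 35.1, 32.3 and 31.7 CPM, with -0.75 (SE 0.0724, adjusted p by edgeR = 2.17e-07). Insig1 (ENSMUSG00000045294, chr5:28071363-28078662), which retains Scap and is itself an Srebp target, went from 201.7, 209.8 and 212.0 CPM to 106.9, 106.1 and 99.4 CPM. Its change was -0.997 (SE 0.0526, adjusted p by edgeR = 1.75e-10). No seed site for miR-497-5p of the kinds searched lies in the 3' UTR of these 3 genes. Levels per kilobase of the longest annotated protein-coding transcript were ranked over the 19 members with under 5% of exon bases in another gene. Which transcripts these cells use was not analysed, and the SD leaves this out. Insig1 had the highest NC level of these members, at 77.05 ± 2.01 CPM per kb (SD, n = 3), followed by Sqle at 69.1 ± 2.54 and Srebf2 at 62.6 ± 2.93. The lowest were Abca1 at 11.7 ± 1.57 and Ebp at 11.2 ± 1.34, which did not differ beyond their spread. With miR-497, Sqle at 49.4 ± 2.16, Npc2 at 45.7 ± 2.05 and Srebf2 at 43.2 ± 1.95 stood above Insig1 at 38.6 ± 1.53.

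Srebf1 and Insig2, the paralogs of Srebf2 and Insig1, did not pass the threshold. Srebf1, better known for fatty acid genes, stood at 128.8, 124.0 and 136.2 CPM with NC and at 125.3, 120.1 and 115.7 CPM with miR-497, with overlapping groups (-0.11, SE 0.0547, adjusted p by edgeR = 0.115). Insig2 stood at 37.8, 37.1 and 40.6 CPM and at 35.3, 30.6 and 37.1 CPM (-0.16, SE 0.0801, adjusted p by edgeR = 0.0996), so that the highest miR-497 value met the lowest NC value. Within each library the log2 ratio of Srebf2 to Srebf1 was 1.29 ± 0.027 with NC and 0.865 ± 0.071 with miR-497 (SD, n = 3), and that of Insig1 to Insig2 was 2.43 ± 0.059 and 1.61 ± 0.185. No library of one group overlapped the other in either ratio (exact 2-sided permutation test, p = 0.1 for each, the smallest possible with 3 against 3; adjusted p = 0.1 over 4 ratios). These ratios do not depend on how libraries are scaled, and the 4 pairs were chosen after the members' values were seen.

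Of the transport genes, Npc2 and Npc1 rose and Stard4 fell. Npc2 (ENSMUSG00000021242), the soluble lysosomal protein that hands cholesterol to Npc1, stood at 71.0, 76.5 and 69.4 CPM with NC and at 151.7, 143.7 and 157.1 CPM with miR-497. It was higher in all 3 miR-497 libraries, with a log2 fold change of 1.06 (SE 0.0579, adjusted p by edgeR = 2.59e-10), a size of rise called in 3.63% of all tested genes. Npc1 (ENSMUSG00000024413), the lysosomal membrane protein, went from 53.3, 58.5 and 64.9 CPM to 107.2, 106.6 and 101.0 CPM, with 0.83 (SE 0.0695, adjusted p by edgeR = 4.07e-08). Stard4, a cytosolic sterol carrier and known Srebp target, went from 198.8, 205.9 and 223.2 CPM to 175.3, 177.4 and 161.0 CPM. This fall was small, at -0.29 (SE 0.0583, adjusted p by edgeR = 0.000521), but the groups did not overlap.

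The 2 export pumps moved in opposite directions. Abca1 (ENSMUSG00000015243), which loads cholesterol onto apolipoprotein A-I, stood at 112.2, 109.1 and 138.5 CPM with NC and at 146.4, 184.6 and 165.1 CPM with miR-497. The third NC library came close to the first miR-497 library, and the change was 0.47 (SE 0.0871, adjusted p by edgeR = 0.000265). Abcg1 (ENSMUSG00000024030), which passes sterol to lipoprotein particles, went from 100.1, 106.6 and 106.1 CPM to 84.6, 88.5 and 85.97 CPM, with -0.27 (SE 0.0549, adjusted p by edgeR = 0.00053). The log2 ratio of Abca1 to Abcg1 within libraries was 0.194 ± 0.177 with NC and 0.931 ± 0.135 with miR-497 (SD, n = 3), with p = 0.1 in the same exact test. The ratio of Npc2 to Npc1 moved by 0.224 on the log2 scale, from 0.299 ± 0.176 to 0.523 ± 0.105 (SD, n = 3), also with p = 0.1 in the exact test and with no overlap between groups.

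**Figure D4:**
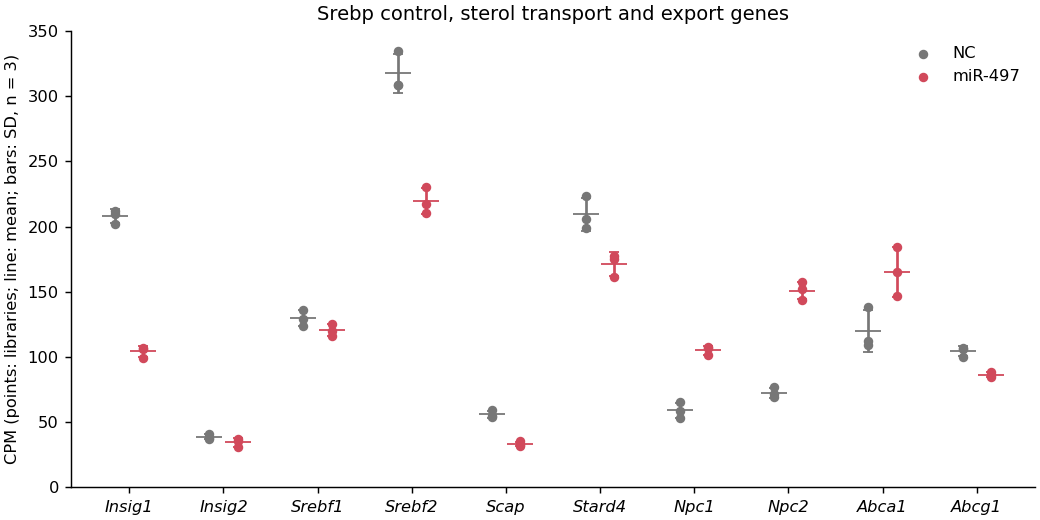
Points are CPM in single libraries for the Srebp control, transport and export genes, lines are means and bars SD over 3 libraries, with NC in grey and miR-497 in red. Insig1, Srebf2 and Scap are lower with miR-497, Npc1, Npc2 and Abca1 higher, and the groups overlap for Srebf1.

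The span of Srebf2 holds the gene of miR-33, a microRNA known to pair with Abca1 and other sterol export transcripts. Mir33 (chr15:82198122-82198190 in GRCm38) had 0 counts in all 6 libraries. It lies wholly inside Srebf2 on the same strand, and of protein-coding genes placed inside a same-strand gene 94.3% of 436 were listed at 0. Mature microRNAs are also not captured by poly(A) selection, so the level of miR-33 is unknown here. Its mature sequence from RefSeq is shown with the seed in capitals, followed by 2 of its 3 seed matches in the 3' UTR of Abca1.
mmu-miR-33-5p: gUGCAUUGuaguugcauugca
Abca1 site 1: gtactgacactattCAATGCAA
Abca1 site 3: aatgcaatgcacttCAATGCAA
These windows lie at chr4:53033801-53033822 and chr4:53033786-53033807 (GRCm38). Matches were CAATGCA, or AATGCAA, in the longest 3' UTR, held by 16% of tested genes with a 3' UTR and by 5 of 28 members. The 5 were Abca1 and Abcg1 with 3 sites each, and Npc1, Nsdhl and Srebf1 with 1 each. Of these, Abca1 and Npc1 rose, Abcg1 and Nsdhl fell, and Srebf1 did not pass the threshold.

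Promoter sequences from RefSeq (GRCm38.p6), from 250 bases before to 50 after a start site, were found for 22 of the 28 members. Fdps, Fdft1, Sqle, Abcg1, Npc1 and Stard4 had none in the sequences used and could not be searched. The letters TCACNCCAC, a form of the sterol regulatory element bound by Srebp factors, were searched on both strands. They occurred in 1 of the 22, Hmgcs1, and in 1.44% of 27025 genes with a promoter. Other forms of the element were not searched, so a member without these letters may still hold one. The CCAAT box, bound by NF-Y, a known partner of Srebp factors, occurred on either strand in 19 of the 22 members, against 43.1% of 10816 tested genes with a promoter and 41.1% of all genes. The 3 members without it were Abca1, Acat2 and Scap. The E-box CACGTG occurred in 6 of 22, against 11.5% of tested genes. A match is a description of these letters, not a bound site. The Hmgcs1 element and, for the 5 members lower by at least 2-fold, the CCAAT match nearest upstream of a start site are shown in capitals. ATTGG is CCAAT on the other strand.
Hmgcs1 sterol element: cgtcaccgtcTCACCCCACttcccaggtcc
Hsd17b7 CCAAT: ggccgagccttgATTGGtcgaggtgcgcgt
Lss CCAAT: ggtgatgctctgATTGGccgagctcgcatc
Mvk CCAAT: tccagctctctgATTGGcctcaggaagaca
Idi1 CCAAT: gtccaaggtgccATTGGctggcgaccgaca
Dhcr7 CCAAT: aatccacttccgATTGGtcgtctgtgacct
They lie at chr13:119690204-119690233, chr1:169969200-169969229, chr10:76531531-76531560, chr5:114444243-114444272, chr13:8885580-8885609 and chr7:143830153-143830182, in the order shown. The Dhcr7 match belongs to a start site inside the gene, not to the promoter with its E-box (chr7:143823223-143823252), which had no CCAAT match. Of 41 CCAAT matches in the members' promoters, 38 lay upstream of the start site, and the median position of all 41 was -53 bases. As the window holds 250 bases before and 50 after the start site, most matches would lie upstream in any case. Positions over all genes were not measured.

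Genes of neighbouring pathways were read from 5 lists. Over all tested genes, 26% were called lower and 23.8% higher. The lists were chosen with earlier results known, so their counts are a description only. Of 15 tested fatty acid genes, many of them Srebp targets, 9 fell and 1 rose, with a median log2 fold change of -0.63; 66.7% were called in either direction, against 49.8% of all tested genes. Scd1, a stearoyl-CoA desaturase, went from 98.3 ± 5.17 to 28.1 ± 5.15 CPM (SD, n = 3), with -1.81 (SE 0.0994, adjusted p by edgeR = 2.72e-10). Fads2, a desaturase of polyunsaturated chains, went from 182.1 ± 6.18 to 71.1 ± 4.86 CPM, and Elovl6, an elongase, from 76.7 ± 5.82 to 39.5 ± 4.90 CPM. Their log2 fold changes were -1.36 and -0.96. The gene that rose was Elovl1, from 70.5 ± 4.29 to 93.4 ± 2.98 CPM (0.40). Acly, Fads1, Me1, Elovl5 and Lpin1 did not pass the threshold.

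Of 14 genes that use farnesyl or geranylgeranyl units, 8 fell and none rose, where 26% of all tested genes fell and 23.8% rose. In either direction 57.1% were called, near the 49.8% of all tested genes, so that share is no result about the list. Icmt and Rce1, which finish prenylated proteins, had log2 fold changes of -0.84 and -0.88, and Coq2 of ubiquinone synthesis had -0.68 (edgeR adjusted p = 9.36e-09, 4.74e-07 and 7.56e-07). The list's median was -0.41.

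The other 3 lists did not share this direction. Of 15 genes for Srebp processing and turnover in the endoplasmic reticulum, 7 rose and 1 fell, where 23.8% of all tested genes rose and 26% fell. In either direction 53.3% were called, near the 49.8% of all tested genes, so that share is no result about the list. Mbtps2, the site-2 protease that releases Srebp factors, went from 43.0 ± 1.95 to 73.7 ± 2.76 CPM (SD, n = 3; 0.77, SE 0.0653, adjusted p by edgeR = 4.66e-08). The vesicle coat genes Sec23a and Sec24d rose by 0.61 and 0.60 on the log2 scale. Erlin2, which takes part in degradation at the endoplasmic reticulum, fell by 1.00 on the log2 scale (edgeR adjusted p = 1.97e-08). For Mbtps2 and Sec23a, 28.4% and 44.1% of the exon bases lie in another gene's span.

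Of 14 genes of the LXR sterol sensors and of oxysterol metabolism, 3 rose, 2 fell and 9 did not pass the threshold. This leaves 35.7% called, against 49.8% of all tested genes. Abca5, a relative of Abca1, had 0.64, and Rxrb and Nr1h2, both nuclear receptors, 0.42 and 0.25 (edgeR adjusted p = 7.15e-06, 0.000248 and 0.00859). Apoe, a lipoprotein component and LXR target, went from 4.13 ± 1.15 to 2.17 ± 0.709 CPM (SD, n = 3; -0.92, edgeR adjusted p = 0.011). Its groups overlapped, and the adjusted p was 0.0558 without NC replicate 1 and 0.0535 without miR-497 replicate 1. The small change of Lpcat3 (-0.17, edgeR adjusted p = 0.0271) lost its call in 5 of 13 alternatives. Its adjusted p was 0.154 without NC replicate 2, 0.134 without miR-497 replicate 3, 0.0516 with the replicate number as a block, 0.0789 with upper-quartile scaling and at the threshold of 0.05 with DESeq2 size factors (edgeR in each).

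Of 17 genes of cholesterol esters, lysosomes and sterol traffic, 8 rose and 4 fell. These 70.6% called compare with 49.8% of all tested genes. Lamp1, a lysosomal membrane protein with 64.4% of its exon bases in another gene's span, had 0.54, and the esterifying enzyme Soat1 and the ester hydrolase Nceh1 had 0.34 and 0.38. Scarb1, the receptor for high-density lipoprotein, went from 100.5 ± 3.43 to 70.3 ± 1.30 CPM (SD, n = 3; -0.52, SE 0.0562, adjusted p by edgeR = 9.38e-07). Scarb2 and Stard5 had -0.72 and -0.51, with 43.9% of the exon bases of Stard5 in another gene's span. The medians of the last 3 lists were 0.12, 0.05 and 0.17.

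**Figure D5:**
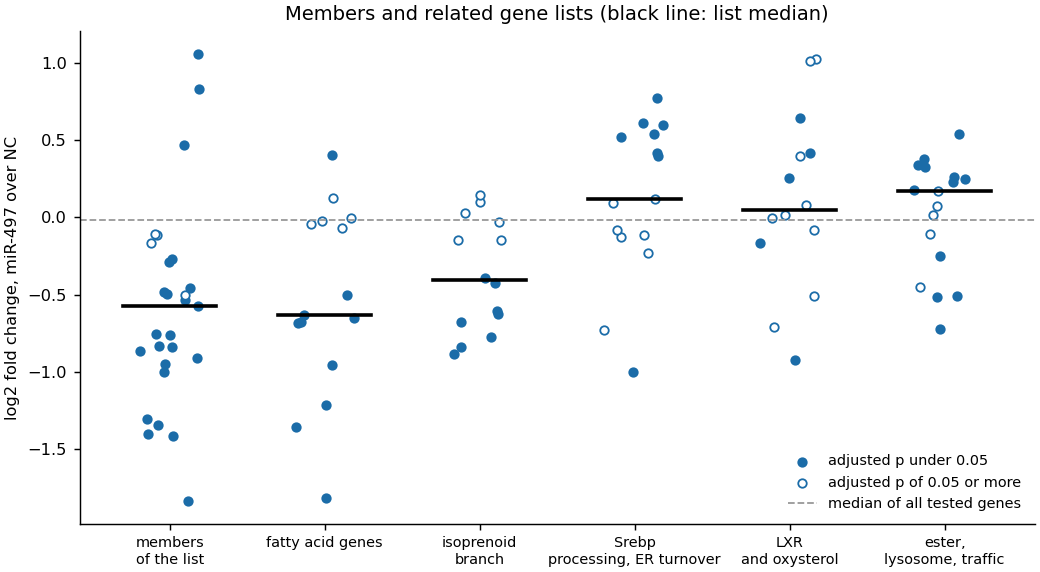
Points are log2 fold changes of miR-497 over NC for the tested members and the tested genes of the 5 related lists, filled where the adjusted p was under 0.05; black lines are list medians and the dashed line is the median of all tested genes, -0.02. The medians of the members, the fatty acid genes and the isoprenoid branch lie at -0.57, -0.63 and -0.41, and those of the other 3 lists lie above the dashed line.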

How the data were processed

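RNA of 6 libraries was poly(A)-selected, per the labels' protocols. The authors deposited raw counts per gene, not normalized; the submitters' processing notes name STAR 2.5.4b, featureCounts of Subread 1.6.1, edgeR 3.32.1 and GRCm38, without settings. The strand setting, annotation release and handling of multiply aligned reads are not given in the sources used here. Symbols, spans and 3' UTRs came from GENCODE M21 (GRCm38), which matched 55141 of 55401 identifiers. Genes were filtered with filterByExpr (minimum count 10, total 15), scaled by TMM and tested with edgeR 4.0.16 in R 4.3.3 (quasi-likelihood, group only, 2-sided, Benjamini-Hochberg, threshold 0.05). CPM use TMM-scaled totals. The standard error is the log2 fold change divided by the root of F. The test was tried on simulated counts that gave every gene the same coefficient of biological variation, and no result here rests on that trial. Alternatives were other scalings, filters, DESeq2 1.42.0, limma 3.58.1 voom, a replicate block and leaving out each library. Every member is named, and of each related list the 3 genes with the smallest p per direction; further names were added with their values known. The members and lists were chosen with earlier results of these data known. Sequences were searched in Python 3.11.15. Depth was 25777676 to 36159499 counts per library, and the spread between libraries was a common coefficient of biological variation of 8.78%.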

Additional observations from a re-analysis of the deposited data

How the results depend on the processing

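Under the 13 alternatives the members called lower numbered 20 or 21 and those called higher 3, and 350 of 351 pairs of member and alternative kept direction and side of the threshold; the exception was Insig2, at -0.22 (edgeR adjusted p = 0.035) without miR-497 replicate 3. No setting moved the median of all genes by more than 0.0466 (log2). Same-numbered libraries deviated from their group means with correlations of -0.119, -0.0351 and -0.133, no library correlated best with its own number, and the labels name no shared culture; with the replicate block 20 members were lower and 3 higher, and over all genes 3563 and 3177. Counts of related genes that moved by over 1.5 times were these. Fatty acid genes called higher were 2, and isoprenoid genes called higher 1, with upper-quartile scaling. Genes for Srebp processing called lower were 2 without a filter and with a mean count of at least 50, and 1 to 3 when single libraries were left out (3 without NC replicate 1, 2 without NC replicate 2 or miR-497 replicate 1). LXR and oxysterol genes called lower were 1 with DESeq2 size factors, upper-quartile scaling and the replicate block, and 1 to 2 when single libraries were left out (1 without NC replicate 1 or 2, or miR-497 replicate 1 or 3). Smaller moves over the 13 alternatives took ester, lysosome and traffic genes called higher to between 6 and 9 (from 8; 6 without NC replicate 1 or miR-497 replicate 1 or 2) and those called lower to 5 without miR-497 replicate 3 (from 4), Srebp processing genes called higher to 9 with upper-quartile scaling (from 7), and LXR and oxysterol genes called higher to 4 without NC replicate 1 (from 3). Members with a miR-497-5p site numbered 0 in the shortest 3' UTR and 1 with 8mers only. In place of the sterol element, the CCAAT box matched 19 members and the E-box 6. Tm7sf2, with the fewest counts, had the largest standard error among members. The cause of these changes was not tested.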
